A study of Mus musculus with 6 samples.

Results

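The transcripts described here are those of the NF-κB subunits and of the proteins that hold them in check in a negative feedback loop, in spleens of female NOD mice given the peptide MOTS-c or a control peptide. The set was fixed by gene symbol: every probe annotated to Nfkb1, Nfkb2, Rel, Rela, Relb, Nfkbia, Nfkbib, Nfkbie, Tnfaip3 or Bcl3 in the authors' deposited fold-change table. This gave 18 probes of 10 genes, among 31692 probes in that table. The rule itself uses no measured value, but the members were chosen with earlier results of these data known. NOD mice develop autoimmune diabetes spontaneously, and MOTS-c is a short peptide encoded in mitochondrial DNA. The MOTS-c group (n = 3) received 0.5 mg/kg/day intraperitoneally every morning, and the vehicle group (n = 3) received a scrambled, non-specific form of the peptide. All mice were female NOD animals obtained at 6 weeks of age, and were killed for spleen collection when 18 weeks old, having fasted for 16 to 18 h. Whether each sample is a mouse of its own is not stated in the labels. The p-values therefore cover the spread between these samples alone, which may be technical.

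NF-κB is a family of dimeric transcription factors built from RelA, c-Rel, RelB, p50 and p52. The subunits p50 and p52 are cut from the precursors p105 (Nfkb1) and p100 (Nfkb2). In resting cells IκB proteins keep the dimers in the cytoplasm. In the canonical route, cytokine, Toll-like and antigen receptors activate the IKK complex, which marks IκB for destruction, whereas in the non-canonical route the kinase NIK drives processing of p100 and frees RelB with p52. Many genes of the system are themselves NF-κB targets, so that IκBα, IκBε and A20 (Tnfaip3) close a negative loop, and Nfkb1, Nfkb2, Rel and Relb are re-supplied. In the spleen these factors act in B cell survival, T cell activation and the upkeep of lymphoid stroma.

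Because several of these genes are known to be driven by NF-κB itself, promoter windows are shown for the 5 genes with a match to the κB consensus, 1 window each. Sequences are the 250 bases before an annotated RefSeq start (GRCm38.p6), 5′ to 3′ on the gene's strand, with matches to the κB consensus, searched on both strands, in capitals. RefSeq windows matched 8 of the 10 genes by symbol, all but Nfkb1 and Relb.
Nfkbia, chr12:55492648-55492897, minus strand: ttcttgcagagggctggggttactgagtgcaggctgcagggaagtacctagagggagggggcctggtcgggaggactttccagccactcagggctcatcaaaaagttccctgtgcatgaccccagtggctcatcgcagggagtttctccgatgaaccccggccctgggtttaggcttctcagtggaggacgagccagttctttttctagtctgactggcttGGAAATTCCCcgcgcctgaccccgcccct
Nfkbie, chr17:45555450-45555699, plus strand: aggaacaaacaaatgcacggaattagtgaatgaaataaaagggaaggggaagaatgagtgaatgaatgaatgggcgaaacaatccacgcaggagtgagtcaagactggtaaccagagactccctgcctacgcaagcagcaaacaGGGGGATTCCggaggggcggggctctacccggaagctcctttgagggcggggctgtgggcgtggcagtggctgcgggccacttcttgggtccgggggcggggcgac
Tnfaip3, chr10:19015411-19015660, minus strand: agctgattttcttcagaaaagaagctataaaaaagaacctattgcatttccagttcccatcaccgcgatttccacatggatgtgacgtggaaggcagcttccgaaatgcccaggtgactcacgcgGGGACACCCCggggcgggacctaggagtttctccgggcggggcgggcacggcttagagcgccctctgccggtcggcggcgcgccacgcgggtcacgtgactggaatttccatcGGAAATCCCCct
Nfkb2, chr19:46304487-46304736, plus strand: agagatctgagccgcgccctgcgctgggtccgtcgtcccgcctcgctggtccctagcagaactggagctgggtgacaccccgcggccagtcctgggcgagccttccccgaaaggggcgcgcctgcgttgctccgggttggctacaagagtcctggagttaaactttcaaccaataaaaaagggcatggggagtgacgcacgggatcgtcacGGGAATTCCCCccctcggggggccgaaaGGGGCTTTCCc
Rel, chr11:23770970-23771219, minus strand: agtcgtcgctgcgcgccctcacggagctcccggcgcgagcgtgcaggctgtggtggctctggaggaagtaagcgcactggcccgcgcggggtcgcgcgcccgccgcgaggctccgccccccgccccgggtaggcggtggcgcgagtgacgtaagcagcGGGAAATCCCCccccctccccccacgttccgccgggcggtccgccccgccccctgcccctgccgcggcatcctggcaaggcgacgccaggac

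In the Nfkbia window the match GGAAATTCCC lay 29 to 20 bases before the start, and in the Nfkbie window GGGGGATTCC lay 106 to 97 bases before it. The Tnfaip3 window held GGGACACCCC at 125 to 116 bases and GGAAATCCCC at 12 to 3 bases. The Nfkb2 window held GGGAATTCCC at 39 to 30 bases, overlapped by a second match shifted by 1 base, and GGGGCTTTCC at 11 to 2 bases. In the Rel window GGGAAATCCC lay 92 to 83 bases before the start and was likewise overlapped by a second match. At least 1 κB match was found for 5 of the 8 genes, against 8.23% of 27025 genes in the same RefSeq table. The windows of Rela, Nfkbib and Bcl3, and that of the other Tnfaip3 start, held no match. A match is a description of the letters and not a measured binding site. The 5 genes with a match had MOTS-c minus vehicle differences of 0.039 to 0.69 (median 0.33, log2), and the 3 without had 0.13 to 0.31 (median 0.15).

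RNA was read on 1-colour Agilent arrays, 1 array per sample. All 18 probes were well above background on all 6 arrays. Throughout, a level is given on the log2 scale relative to the 75th percentile of the same array's processed signals, so a level of 0 equals that percentile, and a difference is the mean level with MOTS-c minus the mean level with vehicle, given with its standard error. The 3 MOTS-c arrays and vehicle 3 shared 1 slide and scan, and vehicle 1 and vehicle 2 another, so slide and treatment are largely confounded. Vehicle 1 stood apart from the other arrays: its correlations with them over tested probes were 0.955 to 0.977, against 0.980 to 0.991 among the other 5. Pancreatic acinar transcripts were highest in vehicle 3, with the 7 markers on average 4.91 log2 units above their own 6-array mean. The other arrays deviated by 1.26 (vehicle 1), 0.26 (MOTS-c 3), -1.66 (vehicle 2), -1.86 (MOTS-c 1) and -2.91 (MOTS-c 2). Spleen markers were present throughout, the 10 T cell and 10 B cell markers being well above background on every array. In RNA from a whole organ, fewer cells of a type and less RNA per cell cannot be told apart.

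Every one of the 18 probes had a higher mean level with MOTS-c, but none passed the test. The smallest adjusted p was 0.115 (limma, Benjamini-Hochberg over 33734 probes), and among all tested probes the share that passed at 0.05 was 0.00593%. At an unadjusted p under 0.05, 6 of the 18 probes were higher with MOTS-c, against 11.3% of all tested probes, and none was lower. The 3 MOTS-c values lay above all 3 vehicle values for 7 of the 18 probes, against 16.3% of all tested probes. A higher mean was itself found for 52.2% of all tested probes. Counted by gene, with the brightest probe for each, 10 of 10 genes had a higher mean (51.5% of all tested genes), 2 of 10 had an unadjusted p under 0.05 in that direction (10.8% of all tested genes) and 3 of 10 had groups that did not overlap (15.8%). The median difference over the 10 genes was 0.32, against 0.015 over all 22508 tested genes. Those 18 probes are not independent: several read the same gene, and the genes shared arrays. The members were also chosen with earlier results of these data known, so the shares beside them are a description only.

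**Figure D1:**
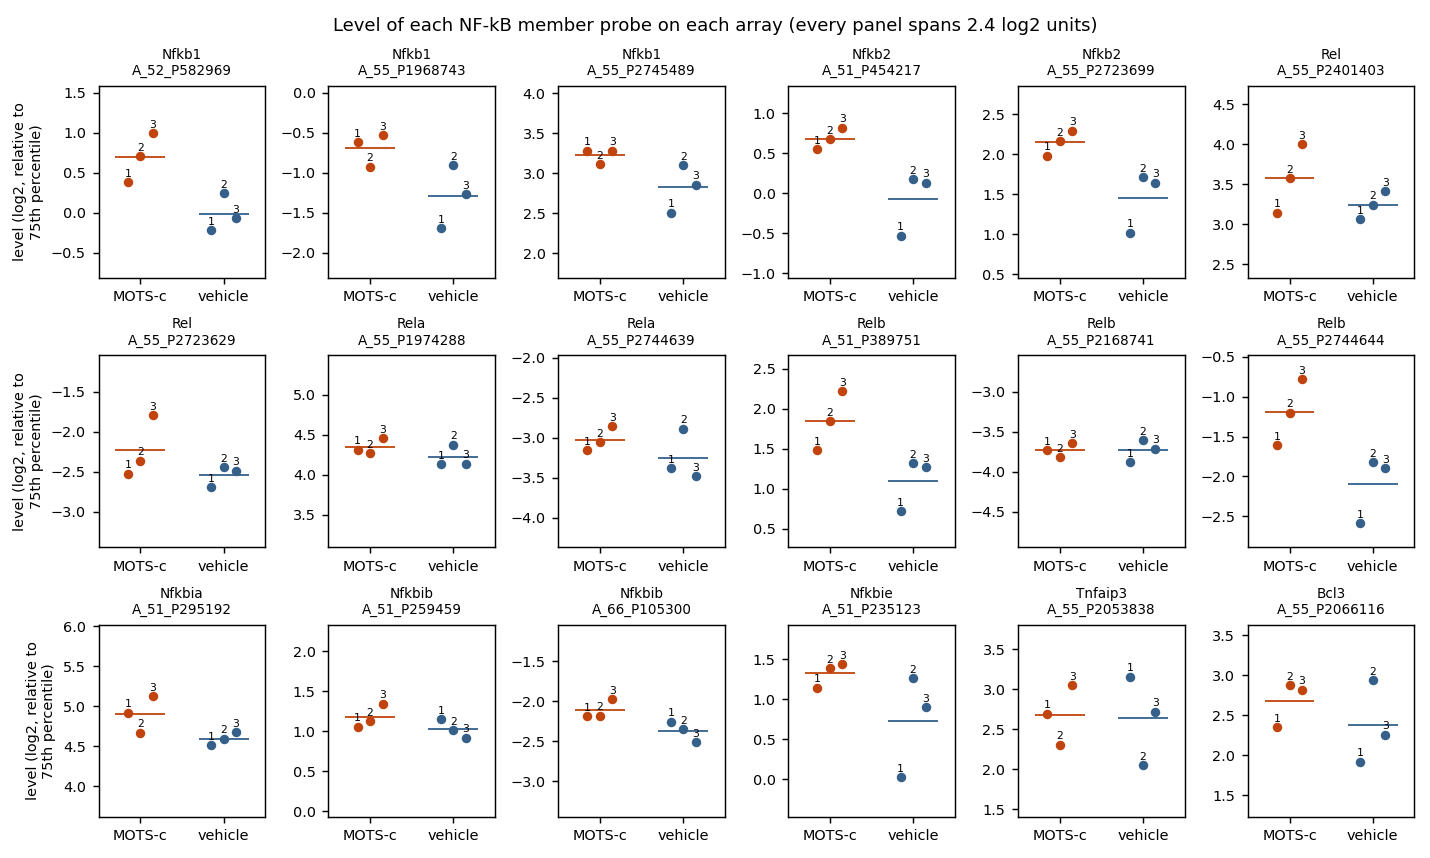
Level of each of the 18 probes (log2 of processed signal over the array's 75th percentile), MOTS-c left of vehicle, 1 point per array with its replicate number and a line at each group's mean. The 3 MOTS-c points lie above the 3 vehicle points in 7 panels, and vehicle 1 is the lowest point in 14.

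Among the brightest probes, those of Nfkb2 and Relb, the pair of the non-canonical route, had the 2 largest differences of the 10 genes. That ranking depended on the choice of probe and array. With all probes of a gene averaged, the order was Nfkb2 (0.72), Nfkbie (0.59), Nfkb1 (0.57) and Relb (0.55). Without vehicle 2, the brightest probes gave 0.859 for Nfkbie, 0.856 for Relb and 0.814 for Nfkb2. For Nfkb2, which encodes p100, the precursor of p52, the brightest probe (chr19:46386440-46386499, mm9) had levels of 1.98, 2.17 and 2.29 in MOTS-c spleens 1 to 3, against 1.02, 1.71 and 1.65 in vehicle spleens 1 to 3. All MOTS-c values were above all vehicle values, by a difference of 0.69 ± 0.22 (1.61-fold, adjusted p = 0.129). The second Nfkb2 probe, 294 bp away, had 0.55, 0.68 and 0.82 with MOTS-c, against -0.53, 0.18 and 0.13 with vehicle. It too kept the groups apart, with a difference of 0.76 ± 0.22 (1.69-fold, adjusted p = 0.115).

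Relb encodes RelB, the partner of p52. Its brightest probe (chr7:20191722-20191781) had 1.48, 1.85 and 2.22 with MOTS-c, against 0.72, 1.32 and 1.27 with vehicle, a difference of 0.75 ± 0.25 (1.68-fold, adjusted p = 0.139) with no overlap. A probe 217 bp away had -1.61, -1.20 and -0.79 with MOTS-c, against -2.58, -1.82 and -1.90 with vehicle, a difference of 0.90 ± 0.28 (1.87-fold, adjusted p = 0.128). In both probes MOTS-c 3 was the highest array and vehicle 1 the lowest. The third Relb probe, 11336 bp from the brightest and dim, had -3.73, -3.82 and -3.64 with MOTS-c, against -3.88, -3.60 and -3.71 with vehicle. Its groups overlapped, and its difference was 0.0012 ± 0.15 (adjusted p = 0.996), so the probes of Relb disagree.

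Nfkb1, whose p105 product gives p50, had 3 probes spread over 27246 bp, and their differences ran from 0.40 to 0.71. The brightest (chr3:135247898-135247958) had 3.28, 3.12 and 3.29 with MOTS-c, against 2.51, 3.11 and 2.86 with vehicle, a difference of 0.40 ± 0.19 (1.32-fold, adjusted p = 0.222). Its groups were apart by only 0.012, between MOTS-c 2 and vehicle 2, and the difference was 0.25 without vehicle 1. The probe at chr3:135275144-135275203 had 0.38, 0.71 and 0.99 with MOTS-c, against -0.22, 0.24 and -0.067 with vehicle. Here too the groups were apart, with a difference of 0.71 ± 0.21 (1.63-fold, adjusted p = 0.118). The remaining probe had -0.62, -0.92 and -0.53 with MOTS-c, against -1.69, -0.90 and -1.26 with vehicle, and MOTS-c 2 fell within the vehicle range (difference 0.59 ± 0.23, adjusted p = 0.171).

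The subunits with transactivation domains in the canonical route showed smaller differences. Rel, the c-Rel subunit prominent in lymphocytes, had 3.14, 3.57 and 4.00 with MOTS-c, against 3.06, 3.24 and 3.41 with vehicle, at its brightest probe (chr11:23637051-23637110). MOTS-c 2 and MOTS-c 3 were above every vehicle array and MOTS-c 1 was not. The difference was 0.33 ± 0.24 (1.26-fold, adjusted p = 0.390), it was 0.12 without MOTS-c 3 and 0.55 without MOTS-c 1, and the second probe gave 0.31 ± 0.22. Rela, the widely expressed p65 subunit, had 4.31, 4.27 and 4.45 with MOTS-c, against 4.13, 4.38 and 4.14 with vehicle (chr19:5648070-5648129). Vehicle 2 lay within the MOTS-c range, and the difference of 0.13 ± 0.15 had a 95% interval of -0.22 to 0.48 (adjusted p = 0.581). With quantile normalization this probe differed by 0.37 ± 0.17 (adjusted p = 0.214) and its groups were apart, and without MOTS-c 3 it differed by 0.077. The second Rela probe gave 0.22 ± 0.20 (adjusted p = 0.488).

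**Figure D2:**
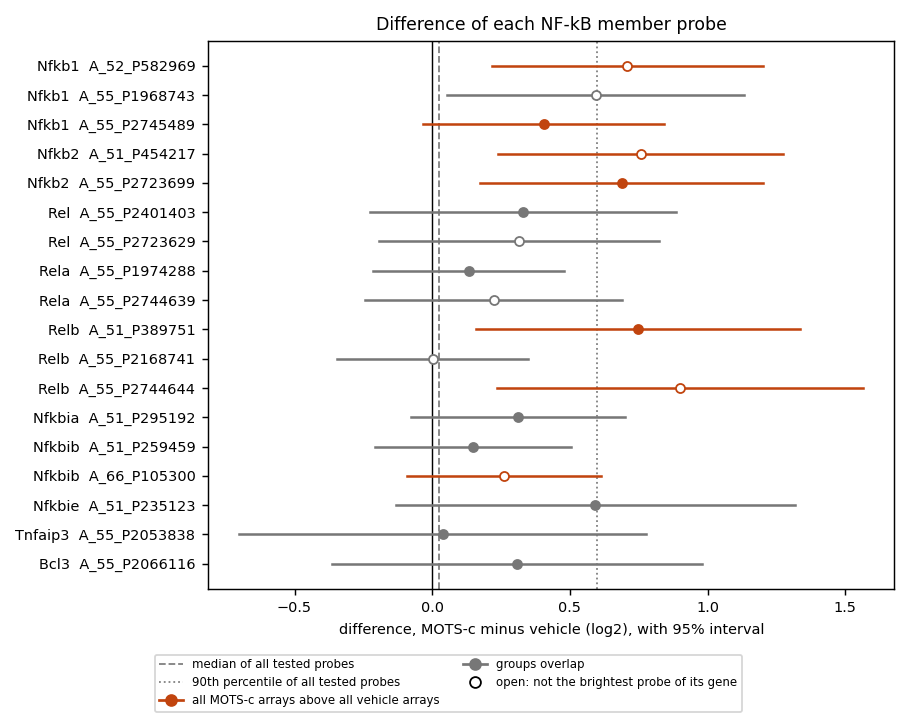
MOTS-c minus vehicle difference (log2) of each of the 18 probes with its 95% interval, grouped by gene, with the median (dashed) and 90th percentile (dotted) of all tested probes. Colour marks probes whose groups did not overlap, and filled points mark the brightest probe of a gene. All 18 point estimates are above 0, from 0.0012 for the dim Relb probe to 0.90 for another probe of the same gene.

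Among the inhibitors, the classical IκB genes had smaller differences than the brightest probes of Nfkb2 and Relb. Nfkbia, which encodes IκBα, the inhibitor rebuilt soonest after NF-κB activation, had 4.92, 4.67 and 5.12 with MOTS-c, against 4.51, 4.59 and 4.68 with vehicle (chr12:56590945-56591440). MOTS-c 2 was level with vehicle 3, and the difference was 0.31 ± 0.17 (1.24-fold, adjusted p = 0.270). With quantile normalization the same probe differed by 0.56 ± 0.19 (adjusted p = 0.144) and its groups were apart, and without MOTS-c 3 it differed by 0.20.

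Nfkbie, encoding IκBε, had 1.15, 1.38 and 1.43 with MOTS-c, against 0.026, 1.26 and 0.90 with vehicle (chr17:45700000-45700059). Its difference of 0.59 ± 0.31 (1.51-fold, adjusted p = 0.261) was 0.24 without vehicle 1, its lowest array. Nfkbib, encoding IκBβ, had 1.06, 1.13 and 1.35 with MOTS-c, against 1.15, 1.02 and 0.92 with vehicle, at its brighter probe. The groups overlapped there (0.15 ± 0.15, adjusted p = 0.541), and the difference was 0.066 without MOTS-c 3. The dimmer Nfkbib probe, 2738 bp away, had -2.19, -2.18 and -1.97 with MOTS-c, against -2.25, -2.35 and -2.51 with vehicle, and the groups did not overlap (0.26 ± 0.15, adjusted p = 0.300).

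Tnfaip3 encodes A20, a ubiquitin-editing enzyme that shuts off signalling to IKK. It had 2.70, 2.31 and 3.05 with MOTS-c, against 3.16, 2.06 and 2.72 with vehicle (chr10:18720776-18720835). The highest and the lowest of the 6 arrays were both vehicle arrays. The difference of 0.039 ± 0.31 (95% interval -0.70 to 0.78, adjusted p = 0.945) had no stable sign, being -0.14 without MOTS-c 3 and -0.26 without vehicle 2. Bcl3 encodes a nuclear IκB family protein that acts with p50 and p52 dimers. Its levels were 2.35, 2.87 and 2.82 with MOTS-c, against 1.92, 2.94 and 2.26 with vehicle (chr7:20393826-20393885), vehicle 2 being the highest array of all. The difference was 0.31 ± 0.29 (1.24-fold, adjusted p = 0.505) and was 0.081 without vehicle 1 and 0.59 without vehicle 2.

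Most of the 10 genes had the same highest and the same lowest array. MOTS-c 3 was the highest of the 6 arrays for 8 of the 10 genes, against 16.4% of all tested genes, and vehicle 1 was the lowest for 8 of 10, against 31.0%. Averaged over the 10 genes, the deviation from the 6-array mean was 0.031, 0.13 and 0.40 in MOTS-c spleens 1 to 3, against -0.39, -0.044 and -0.13 in vehicle spleens 1 to 3. The group means were 0.19 ± 0.19 with MOTS-c and -0.19 ± 0.18 with vehicle (SD, n = 3 each). Tnfaip3 followed another order, with vehicle 1 its highest array. As a description over 6 arrays that share slides, the deviation of Relb followed the mean of the other 9 genes with r = 0.985, that of Nfkb2 with r = 0.936 and that of Tnfaip3 with r = -0.268. Bcl3 gave r = 0.668 and Nfkbib r = 0.529. Over the 45 pairs of genes the median r was 0.633 (-0.671 to 0.964), with the group difference included. The named genes outside the set whose 6 values followed the member mean most closely were Irgq (r = 0.997), Gpr132 (r = 0.996), Lipn (r = 0.993), Plcxd2 (r = 0.992) and Efhb (r = 0.992). They were picked for that likeness from 14534 genes, 481 of which had an r over 0.9.

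The authors' deposited table, made from quantile-normalized values, gives positive signed folds for 17 of the 18 probes, and for 53.7% of all its probes. Its unadjusted p was under 0.05 for 2 of the 18 probes, against 13.4% of the authors' deposited table as a whole. These were an Nfkb1 probe (1.66-fold, p = 0.0364) and Nfkbia (1.47-fold, p = 0.0491), and the smallest adjusted p of the 18 in the authors' deposited table was 0.370.

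Other genes of the pathway were read from lists by role, and no gene in any of them passed the test as reported at an adjusted p under 0.05, against 0.00889% of all 22508 tested genes. Counts at an unadjusted p under 0.05 are therefore set beside the 10.8% of tested genes that were higher and the 14.1% that were lower at that level. In the canonical activation list (receptor adaptors, ubiquitin ligases and IKK), 13 of 20 genes had a higher mean and 7 a lower one, with 3 higher and 4 lower at that level and a median difference of 0.10 (0.20 without MOTS-c 2). Under each of 2 alternatives, normexp with 75th percentile scaling and leaving out vehicle 2, 1 gene of this list passed, in the lower direction. Tab3, an adaptor of the kinase TAK1, had 1.25, 1.18 and 1.03 with MOTS-c, against 3.05, 1.98 and 2.39 with vehicle, with no overlap (difference -1.32 ± 0.27, adjusted p = 0.0795). Tab1, another TAK1 partner, differed by -0.81 ± 0.21 (adjusted p = 0.0950). Ikbkb, the kinase IKKβ, differed by 0.47 ± 0.15 (adjusted p = 0.126), its other probes giving -0.021 to 0.50. Rnf31, the catalytic subunit of the linear ubiquitin ligase, differed by 0.65 ± 0.21 (adjusted p = 0.131).

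The antigen receptor branch, which couples the T and B cell receptors to IKK, had 5 of 5 genes with a higher mean, 2 of them at an unadjusted p under 0.05, and a median difference of 0.66. Prkcq, the T cell kinase PKCθ, had 1.53, 1.31 and 1.29 with MOTS-c, against 0.20, 0.65 and 1.08 with vehicle (0.73 ± 0.23, adjusted p = 0.131). Malt1, a protease of antigen receptor signalling, had 2.20, 2.47 and 2.85 with MOTS-c, against 1.52, 1.92 and 2.11 with vehicle (0.66 ± 0.23, adjusted p = 0.147). For both, all MOTS-c values were above all vehicle values. Prkcb, the B cell kinase PKCβ, differed by 0.54 ± 0.31 (adjusted p = 0.302), and its groups overlapped. Without vehicle 1 the median of this list was 0.26.

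In the non-canonical list, 8 of 9 tested genes had a higher mean, 2 at an unadjusted p under 0.05, with a median of 0.53 and of 0.26 without vehicle 1. Tnfsf13b, the B cell survival ligand BAFF, differed by 0.53 ± 0.19 (adjusted p = 0.157), with probes from -0.28 to 0.53. Its receptor Tnfrsf13c differed by 0.76 ± 0.31 (adjusted p = 0.184), and Traf3, which restrains NIK, by 0.47 ± 0.21 (adjusted p = 0.209). Ltb, the lymphotoxin β chain, had 5.47, 5.52 and 5.19 with MOTS-c, against 2.50, 4.86 and 4.90 with vehicle. Vehicle 1 was far below the other 5 arrays, and the difference was 1.30 ± 0.61 (adjusted p = 0.225). All 5 lymphoid chemokines and addressins of this branch had a higher mean, 1 at an unadjusted p under 0.05, with a median of 0.34. Ccl21a differed by 0.67 ± 0.26 (adjusted p = 0.171), the vascular addressin Madcam1 by 0.66 ± 0.30 (adjusted p = 0.213), the B cell attractant Cxcl13 by 0.34 ± 0.17 (adjusted p = 0.240) and Ccl19 by 0.24 ± 0.25 (adjusted p = 0.559).

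Among 17 other IκB proteins and negative regulators, 12 had a higher mean and 5 a lower one, with 3 higher and 2 lower at an unadjusted p under 0.05 and a median of 0.15. That median was 0.065 without vehicle 1 and 0.28 without vehicle 2. Nfkbid, the nuclear inhibitor IκBNS, had a larger difference than any of the 18 probes. Its levels were 2.26, 2.10 and 2.03 with MOTS-c, against 0.39, 1.02 and 0.97 with vehicle, with the groups more than 1 log2 unit apart. The difference was 1.33 ± 0.20 (2.52-fold, adjusted p = 0.0795), a second probe gave 1.23, and without vehicle 1 it was 1.13. Nfkbid passed the threshold with normexp and 75th percentile scaling (1.35, adjusted p = 0.0483) and without vehicle 2 (1.45, adjusted p = 0.0454). Blocking on the slide gave 1.16 and an adjusted p of 0.474. Nfkbiz, another nuclear IκB, differed by 0.54 ± 0.17 (adjusted p = 0.124), and N4bp1 by 0.62 ± 0.22 (adjusted p = 0.146). Rnf11, a partner of A20, had 1.45, 1.22 and 0.93 with MOTS-c, against 2.48, 1.77 and 2.18 with vehicle, with no overlap (-0.94 ± 0.23, adjusted p = 0.0894).

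Of 29 tested textbook NF-κB target genes, 24 had a higher mean and 5 a lower one, with 4 higher and 1 lower at an unadjusted p under 0.05. The median was 0.42, with 0.22 without vehicle 1 and 0.63 without vehicle 2. Bcl2l1, the survival gene encoding Bcl-xL, ran the other way, with 5.06, 4.48 and 4.43 in MOTS-c spleens, against 6.47, 5.43 and 5.79 in vehicle spleens. Its groups did not overlap (-1.24 ± 0.30, adjusted p = 0.0895), and its 5 probes gave -1.35 to -1.10. The chemokine Ccl3 differed by 0.76 ± 0.21 (adjusted p = 0.109) and the co-stimulatory ligand Cd86 by 0.63 ± 0.19 (adjusted p = 0.118), though the probes of Cd86 ran from -0.085 to 0.65. Tnf differed by 0.65 ± 0.25 (adjusted p = 0.165), with 1.62 at its other probe, and the adaptor Traf1 by 1.17 ± 0.47 (adjusted p = 0.183). For the remaining 3 named targets, the transcription factor Irf1, the caspase-8 regulator Cflar and the cyclin Ccnd2, differences were 0.84, 0.48 and 0.69 (adjusted p = 0.201, 0.202 and 0.207). The probes of Cflar ran from -0.090 to 0.51.

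**Figure D3:**
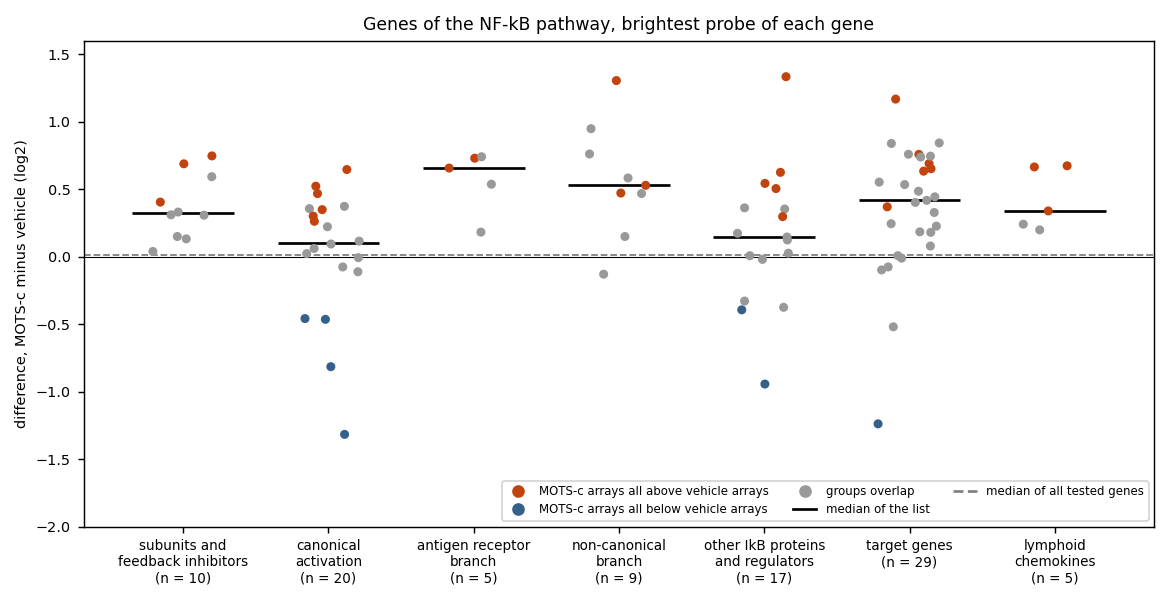
MOTS-c minus vehicle difference (log2) of each tested gene, by pathway list, with the list's median as a bar and the median of all tested genes as a dashed line. Colour marks genes whose groups did not overlap. The medians run from 0.10 for canonical activation to 0.66 for the antigen receptor branch, the 10 subunit and inhibitor genes having 0.32.

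Markers of the cells that make up the spleen also had different means in the groups, though none passed the test as reported at an adjusted p under 0.05. All 10 T cell markers had a higher mean with MOTS-c, with no overlap in any of the 10 (15.8% of all tested genes) and a median difference of 0.93. Their summed level, in multiples of the 75th percentile signal, was 131 to 146 in MOTS-c spleens and 36.5 to 104 in vehicle spleens. Without vehicle 1 their median was 0.41, and with the slide as a block 0.38. The 10 B cell markers also had a higher mean in 10 of 10, with a median of 0.72, and of 0.28 without vehicle 1. Their summed level was 164 to 178 with MOTS-c and 54.2 to 150 with vehicle. In the examples with the smallest p, the T cell genes Lat and Il7r differed by 1.14 ± 0.35 and 1.12 ± 0.35 (adjusted p = 0.124 and 0.125), and the B cell genes Cr2 and Cd72 by 1.52 ± 0.56 and 0.77 ± 0.31 (adjusted p = 0.160 and 0.185).

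Erythroid and dividing-cell markers ran the other way. All 10 erythroid markers were lower in every MOTS-c array than in any vehicle array (19.1% of all tested genes did so), with a median difference of -1.31 and a summed level of 155 to 185 with MOTS-c and 318 to 560 with vehicle. All 10 dividing-cell markers did the same, with a median of -1.15 and a summed level of 134 to 169 with MOTS-c and 254 to 418 with vehicle. The erythroid gene Tspo2 differed by -1.38 ± 0.21, and the dividing-cell genes Cdk1 and Birc5 by -1.37 ± 0.25 and -1.16 ± 0.21 (adjusted p = 0.0795 for each of these 3). The medians of these 2 lists were -1.08 and -0.94 without vehicle 1. With normexp and 75th percentile scaling, 7 of the 10 erythroid and 5 of the 10 dividing-cell markers passed at an adjusted p under 0.05, all lower, and without vehicle 2, 10 of 10 and 4 of 10 did.

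Of 7 tested dendritic cell markers 6 had a higher mean (median 0.60, summed level 79.1 to 93.0 with MOTS-c and 78.3 to 101 with vehicle), and without vehicle 1 it was 5 of 7 and a median of 0.32. Most of that sum came from 1 gene, the only one of the 7 with a lower mean (-0.14, and 0.98 at its other probe). Flt3 differed by 0.63 ± 0.22 (adjusted p = 0.146), with -0.23 at its other probe, and Clec9a by 1.00 ± 0.48 (adjusted p = 0.234). Of 9 macrophage markers 5 had a higher mean (median 0.087, summed level 169 to 204 with MOTS-c and 174 to 179 with vehicle), Siglec1 differing by 0.63 ± 0.25 (adjusted p = 0.176) and Spic by -0.30 ± 0.18 (adjusted p = 0.314). That median had no stable sign, being -0.036 with the slide as a block. Of 10 neutrophil markers 9 had a higher mean (median 0.95), but their summed level spread over 228 to 631 with MOTS-c and 170 to 498 with vehicle. With the slide as a block 3 of 10 were higher and the median was -0.18, and the median was 0.38 without vehicle 2 and 0.57 without MOTS-c 2. Retnlg differed by 1.05 ± 0.46 (adjusted p = 0.207) and Ltf by 1.58 ± 0.91 (adjusted p = 0.302). The 6 stromal markers had a higher mean in 6 of 6 (median 0.22, summed level 20.4 to 32.8 with MOTS-c and 18.9 to 28.9 with vehicle), and Col1a1 and Col3a1 differed by 0.28 ± 0.24 and 0.24 ± 0.21 (adjusted p = 0.469 and 0.470). The probes of Col3a1 ran from -0.098 to 0.24. Blocking on the slide left 4 of 6 stromal markers higher, with a median of 0.056. The 7 acinar markers had a lower mean in 7 of 7 (median -3.13, summed level 0.562 to 5.59 with MOTS-c and 1.39 to 134 with vehicle), Pnlip differing by -3.93 ± 1.90 (adjusted p = 0.236) and Cpa1 by -3.51 ± 1.73 (adjusted p = 0.244). Leaving out vehicle 3 gave an acinar median of -1.44. All tested spleen markers were well above background on all 6 arrays, and 6 of the 7 acinar markers were as well. Testing itself required this on every array of the MOTS-c or of the vehicle group, and the listed Vsig4 and Xcr1 were not tested. The part of these markers in the differences of the NF-κB genes was not tested.

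**Figure D4:**
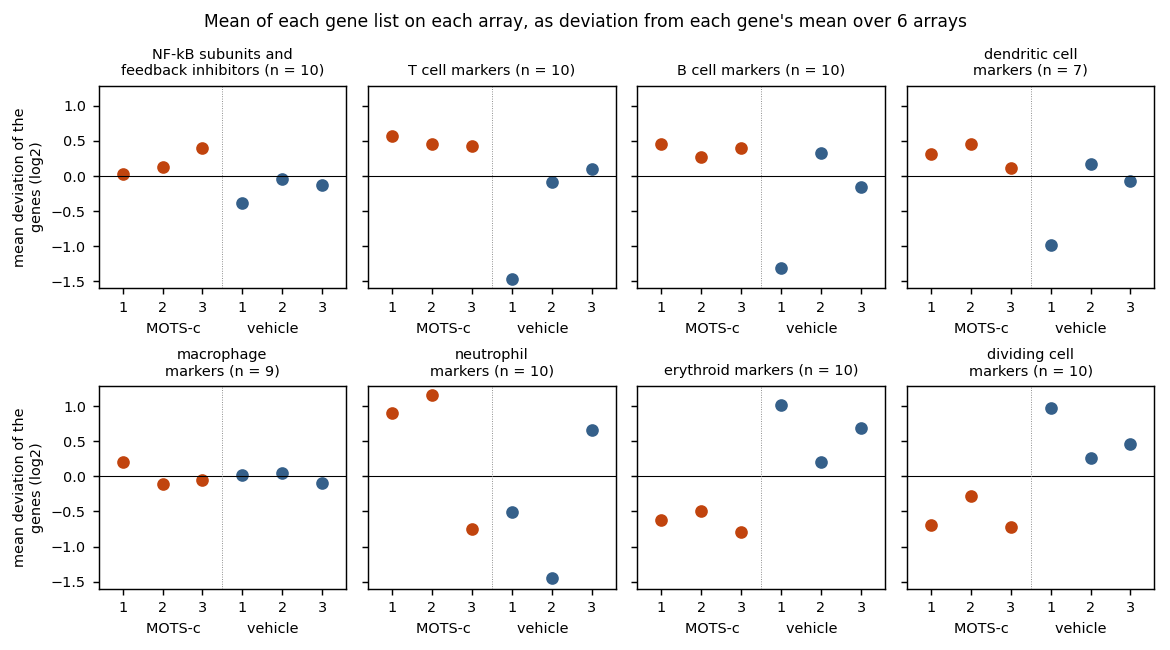
Mean deviation from the 6-array mean (log2) of the 10 subunit and inhibitor genes and of the cell type marker lists on each array, MOTS-c left of vehicle. Vehicle 1 is the lowest array for the NF-κB genes and for the T and B cell markers, and the erythroid and dividing-cell markers lie above 0 on all 3 vehicle arrays.

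The erythroid and dividing-cell markers ordered the arrays in the reverse of the NF-κB genes at both ends. The erythroid markers deviated by -0.63, -0.50 and -0.79 in MOTS-c spleens 1 to 3, against 1.01, 0.20 and 0.69 in vehicle spleens 1 to 3. The dividing-cell markers deviated by -0.70, -0.28 and -0.72 with MOTS-c, against 0.97, 0.27 and 0.47 with vehicle. Both list means were thus lowest in MOTS-c 3 and highest in vehicle 1, where the mean of the NF-κB genes was highest and lowest. For the dividing-cell markers MOTS-c 1 was close to MOTS-c 3 (-0.70 against -0.72). The T cell markers deviated by 0.57, 0.46 and 0.43 in MOTS-c spleens 1 to 3, against -1.47, -0.088 and 0.095 in vehicle spleens 1 to 3. The B cell markers deviated by 0.45, 0.28 and 0.41 with MOTS-c, against -1.31, 0.33 and -0.16 with vehicle. The mean of the 10 NF-κB genes was highest in MOTS-c 3, and the means of both lymphocyte lists were highest in MOTS-c 1, for the B cell markers by little (0.45 against 0.41 in MOTS-c 3). Vehicle 1 was lowest in all 3 of these sets. As a description over the same 6 arrays, with the groups included, each list mean was correlated with the mean of the 10 NF-κB genes. The r was -0.901 for erythroid, -0.888 for dividing-cell, 0.812 for T cell and 0.816 for B cell markers. It was 0.737 for dendritic cell, 0.442 for stromal, -0.364 for acinar, -0.173 for macrophage and 0.042 for neutrophil markers.

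Within the slide that held both groups, the 3 MOTS-c arrays against vehicle 3 alone, 16 of the 18 probes kept a higher mean, and the median over the 10 genes was 0.31. The exceptions were Tnfaip3 (-0.038) and the dim Relb probe (-0.021). Over all tested probes the median within this slide was 0.043. Its only vehicle array, vehicle 3, is the one in which the pancreatic acinar markers were highest. With the slide as a block the differences are the same as within this slide, by construction. None of the 18 probes then had an unadjusted p under 0.05, against 2.65% of all tested probes higher at that level. The smallest adjusted p of the 18 was 0.526. Leaving out MOTS-c 3, the array highest for most of the genes, gave a median of 0.22. In that fit 2 probes were higher at an unadjusted p under 0.05, against 5.35% of all tested probes. Leaving out vehicle 1 gave a median of 0.24 and 4 such probes, against 8.16% of all tested probes. With 3 arrays a side, 0.1 is the smallest p an exact two-sided permutation test can give, and none was run on single genes.

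**Figure D5:**
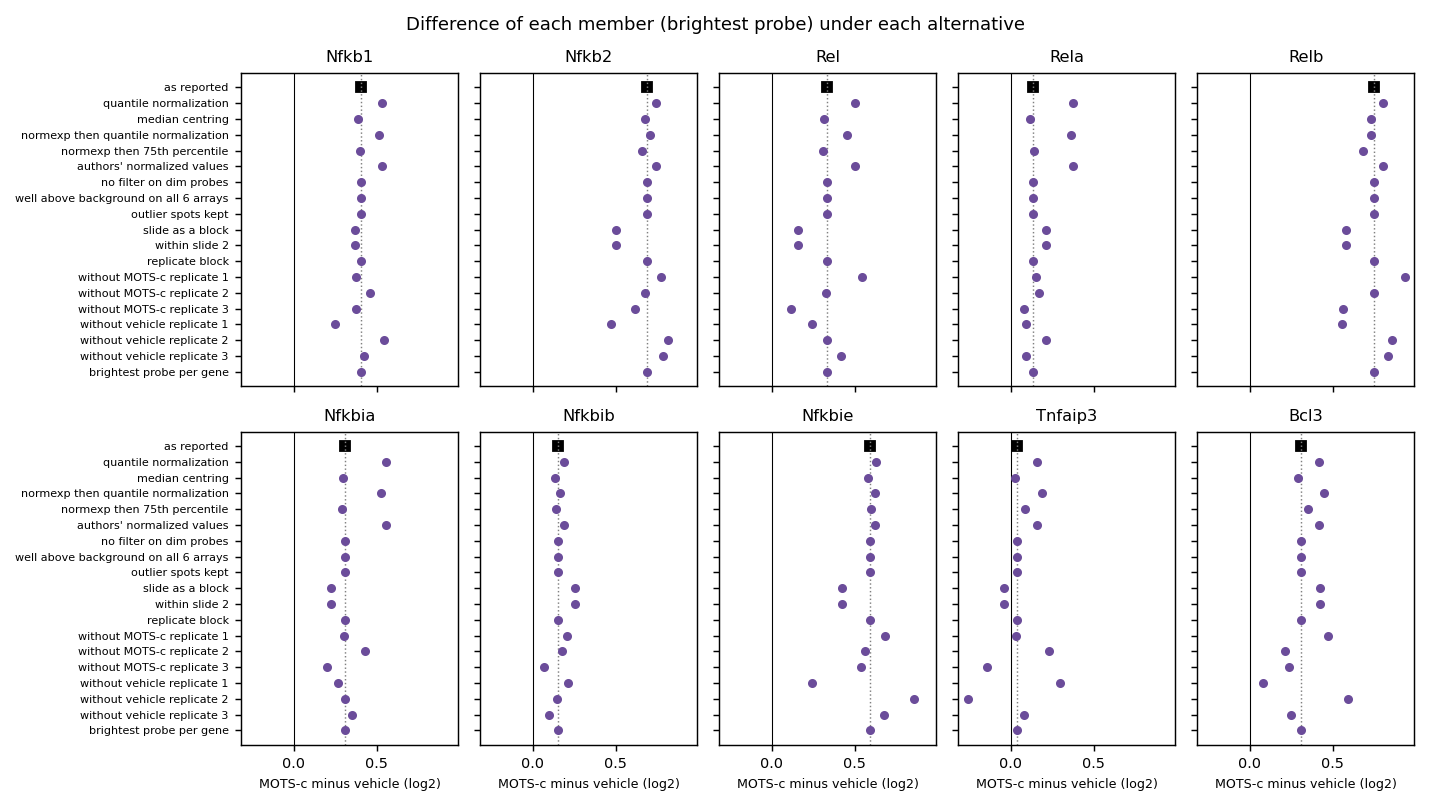
MOTS-c minus vehicle difference (log2) of the brightest probe of each of the 10 genes under each way of scaling, filtering, blocking or leaving out 1 array. Nfkb2 and Relb lie between 0.47 and 0.93 throughout, whereas Tnfaip3 lies on both sides of 0.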

How the data were processed

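Spleen RNA of 3 MOTS-c and 3 vehicle samples was read on 1-colour (Cy3) Agilent arrays designed on mm9. Agilent Feature Extraction 11.0.1.1 gave the spot intensities, background-subtracted within each array, per the file headers, which also give the 0 or 1 flags used for background and outliers. The authors' deposited table holds quantile-normalized log2 values for 31692 probes, a signed fold stored as a score, and a p-value with its adjusted form; the test behind them is not given in the sources used here. Its processed signals equalled the scanner output for 100% of probes, within a relative tolerance of 0.001.

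Each sample's group and replicate number came from its title. For vehicle 3 and MOTS-c 3 the description carries another number. Outlier spots (97 to 145 of 59305 per array) were left out, no spot was saturated, and 61.9% to 64.0% of spots were well above background. The 75th percentile signal was 678 to 926. Spots of a probe were averaged, giving 56605 probes. Processed signals were put on the log2 scale and centred on each array's 75th percentile. A probe was tested if every array of the MOTS-c or of the vehicle group had it well above background and all 6 arrays had a value. The 33734 such probes were tested by limma 3.58.1 in R 4.3.3 (lmFit and eBayes, two-sided, Benjamini-Hochberg over all tested probes, threshold 0.05). The fit was also run on simulated arrays, drawn independently from each probe's mean and pooled SD. It called 29 of 100 probes with a true log2 difference of 1 and 74 of 100 with one of 2, with 6 false calls. In that setting, where only these probes changed and the arrays shared no slide, a true difference of 1 was mostly missed. How often it would be missed in the measured arrays was not tested. Summaries by gene used the brightest probe (22508 genes). The number of arrays limits the precision.

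The normexp alternatives (offset 50) used the spot and background medians. Other alternatives were quantile normalization, median centring, the authors' values, filters, outlier spots, slide, replicate number, leaving out each array, and the mean of a gene's probes. Members and gene lists were chosen with earlier results of these data known. Named in the text are all members, the 4 genes of smallest p of each pathway list (8 of the target list), 2 of each marker list, and the 5 genes most like the member mean; 2 genes that this rule names are not reported here. Listed genes that were not tested (Cd40lg, Tnip3, Cxcl2, Bcl2a1a, Bcl2a1b, Csf2, Vsig4 and Xcr1) are left out of the counts. Positions of probes follow the design (mm9), and promoter windows are RefSeq's (GRCm38.p6); the builds were not mixed.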

Additional observations from a re-analysis of the deposited data

How the results depend on the processing

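No member probe passed an adjusted p of 0.05 under any alternative, the smallest being 0.0837 with normexp and 75th percentile scaling, and 16 of the 18 probes kept their direction throughout. The other 2 were near 0. The dim Relb probe (A_55_P2168741) gave -0.041 with quantile normalization, -0.014 with median centring, -0.052 with normexp and 75th percentile scaling, -0.031 with the authors' values, -0.021 with the slide as a block or within slide 2, and -0.074 to 0.066 when 1 array was left out (below 0 without MOTS-c 3, at -0.044, and without vehicle 1). Tnfaip3 (A_55_P2053838) gave -0.038 with the slide as a block or within slide 2, and -0.26 to 0.30 when 1 array was left out (below 0 without MOTS-c 3, at -0.14, and without vehicle 2). The median over the 10 genes (0.32) was 0.52 with quantile normalization and with the authors' values, and 0.22 to 0.44 when 1 array was left out; the cause was not tested. Over all tested probes, 2 passed in the test as reported. The number was 0 with normexp and quantile normalization, 645 with normexp and 75th percentile scaling (38 higher, 607 lower), 0 with the authors' values, 0 without a filter on dim probes, 0 with probes well above background on all 6 arrays, 1 with the slide as a block, 0 within slide 2, and 0 to 1113 when 1 array was left out, the highest without vehicle 2 (144 higher, 969 lower).

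For arrays with the same replicate number, deviations from the group means correlated with r = -0.171, 0.00635 and -0.0902. For arrays with different numbers r was -0.129 to 0.186. Deviations within a group sum to 0, and slide and treatment are largely confounded. These values therefore cannot decide whether the numbers pair the samples. With the replicate number as a block, 0 of all tested probes passed and the median over the 10 genes was 0.32. In that fit 5 member probes were higher at an unadjusted p under 0.05, against 9.52% of all tested probes. All 6 pathway list medians stayed above 0 in each of their 108 recomputed values, 17 of which moved by more than 1 SD between replicates. Averaging all probes of a gene, in place of its brightest, gave a median of 0.32. With this averaging 3 of 10 genes were higher at an unadjusted p under 0.05, against 11.04% of all tested genes. Within slide 2 the single vehicle array is assumed to vary like the MOTS-c arrays. Across both slides the vehicle arrays varied more. Their median absolute deviation from the group mean was 0.164 to 0.209, against 0.098 to 0.114 for the MOTS-c arrays.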
